A study of Homo sapiens with 7 samples.

Results

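The genes described here are 10 long noncoding RNAs (lncRNAs), chosen by name: MALAT1, NEAT1, H19, MEG3, KCNQ1OT1, TUG1, GAS5, SNHG1, NORAD and MIAT. All 10 have a row among the 60234 genes of the deposited expression table. No measured value was a criterion of the choice, but earlier results of these data were known when it was made. RNA was sequenced after poly-A selection from cardiomyocytes made from WTC-11, an established human induced pluripotent stem cell line, so every library shares 1 genetic background. After 35 days of maturation the cultures were given, at 2 uM for 96 h and without a transfection step, either a scrambled antisense oligonucleotide (ASO) or an ASO against MYH7B; an ASO is a synthetic oligomer designed to base-pair with 1 RNA. There were 3 scrambled ASO libraries and 4 MYH7B ASO libraries, and the labels do not say whether libraries of a group came from separate differentiations, so p-values measure only the spread between these libraries.

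LncRNAs act as RNA rather than as a template for protein. MALAT1 resides in nuclear speckles, bodies rich in splicing factors, and the long form of NEAT1 is the scaffold of paraspeckles, another nuclear body. H19, MEG3 and KCNQ1OT1 are imprinted, meaning that 1 parental copy is expressed. GAS5 and SNHG1 carry small nucleolar RNAs in their introns, NORAD binds Pumilio proteins in the cytoplasm, TUG1 is widely expressed, and MIAT is named for a reported association with myocardial infarction.

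Sequence stretches that set some of these RNAs apart are shown first, read from the GENCODE 29 transcripts (GRCh38). The mature 3′ ends of MALAT1 and of long NEAT1 carry no poly-A tail and are held by a triple helix of U-rich and A-rich stretches, which bears on how a poly-A library recovers them. The capitals below mark 3 stretches of at least 8 bases that the last 100 bases of NEAT1 share, in the same order, with the last 600 bases of MALAT1 (TTTCTTTT, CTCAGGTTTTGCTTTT and AAAAAGCAAAA, sense strand).
MALAT1, chr11:65506031-65506116, plus strand: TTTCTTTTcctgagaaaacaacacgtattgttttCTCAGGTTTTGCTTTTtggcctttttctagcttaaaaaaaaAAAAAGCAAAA
NEAT1, chr11:65445453-65445540, plus strand: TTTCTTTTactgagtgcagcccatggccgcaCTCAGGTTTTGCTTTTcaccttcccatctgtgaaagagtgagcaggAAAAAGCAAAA
Among the longest transcripts of 16066 lncRNA genes, 2 held these 3 stretches in this order within 150 bases, and they were the pair the stretches were taken from.

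NORAD is shown for its Pumilio elements, searched as TGTANATA on the sense strand with overlaps allowed. Its single transcript of 5339 bases held 15, of which 3 neighbouring pairs start 9 bases apart; the capitals mark the elements.
NORAD pair 1, chr20:36049493-36049529, minus strand: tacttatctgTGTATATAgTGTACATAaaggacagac
NORAD pair 2, chr20:36048296-36048332, minus strand: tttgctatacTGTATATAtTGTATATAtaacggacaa
NORAD pair 3, chr20:36047660-36047696, minus strand: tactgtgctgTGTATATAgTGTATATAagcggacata
Of 342 lncRNA transcripts within 20% of this length, 36.3% held at least 1 such element and 0.877% held as many as NORAD. MIAT is shown for TACTAAC, a repeat that matches the branch point read by the splicing factor SF1 and lies close to the letters bound by QKI.
MIAT, chr22:26672177-26672230, plus strand: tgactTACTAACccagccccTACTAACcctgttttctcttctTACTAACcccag
The longest MIAT transcript held 7 of them in 10143 bases, while 14.3% of 35 lncRNA transcripts within 20% of its length held at least 1. A match of letters describes the sequence and is not a measured binding site.

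Levels are given as TPM, a relative abundance corrected for transcript length, so that levels can be compared between genes. In MYH7B ASO replicate 1 the values are out of row order, so the main values use the 6 other libraries, and the value of replicate 1 after reordering is given beside them. Replicate 1 has 58721 values, which sum to 1000000 TPM, whereas the other columns reach that sum over 60234 genes; whether its gene models also differ was not tested. Transcripts of the mitochondrial genome made up 27.4% to 33.6% of TPM in the 6 libraries and 17.2% in replicate 1. MYH7B, the ASO target, had 23.0, 36.5 and 25.1 TPM with the scrambled ASO and 9.30, 5.65 and 6.31 TPM in MYH7B ASO replicates 2 to 4, with 1.29 TPM in replicate 1. Cardiomyocyte markers were all detected, and their 9 genes summed to 9658 to 10566 TPM with the scrambled ASO and 7680 to 8929 TPM with the MYH7B ASO. The 9 fibroblast markers summed to 2908 to 5255 TPM and 1366 to 2103 TPM, and the 6 smooth muscle and pericyte markers to 1006 to 1412 TPM and 592 to 792 TPM. All 4 epicardial markers were detected and tested, with sums of 290 to 352 TPM and 220 to 342 TPM. Of 5 endoderm markers, AFP, TTR, FOXA2 and SOX17 stayed under 1 TPM in all 6 libraries, while APOA1, an apolipoprotein gene, had 4.03 to 6.39 TPM and 9.37 to 14.8 TPM (log2 fold change 1.06, limma adjusted p = 0.0706; adjusted p-value 0.00103 in the authors' deposited table). Of 5 endothelial markers, 2 were tested, with sums over the list of 17.5 to 21.8 TPM and 11.5 to 17.2 TPM, and VWF stayed under 1 TPM. Of 5 pluripotency markers, 3 were tested, with sums of 4.24 to 7.13 TPM and 2.80 to 5.82 TPM, and NANOG and LIN28A stayed under 1 TPM. In bulk RNA, fewer cells of a type and less RNA per cell cannot be told apart.

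The 10 lncRNAs spanned more than 3 orders of magnitude. H19 was the most abundant lncRNA of the table, with a mean of 3865 TPM over the 6 libraries, rank 29 among all genes. GAS5 followed at 348 TPM (rank 8 among lncRNAs), then MALAT1 at 148 TPM (rank 12), NORAD at 89.4 TPM (rank 19), SNHG1 at 54.9 TPM (rank 29) and TUG1 at 48.5 TPM (rank 33). MEG3 had 25.9 TPM (rank 55) and NEAT1 8.47 TPM (rank 209). KCNQ1OT1 at 0.833 TPM (rank 2205) and MIAT at 0.827 TPM (rank 2224) were not abundant in these cells by this measure. KCNQ1OT1 is a single unspliced transcript of 91667 bases, so a low TPM still rests on many reads: its mean normalized count in the authors' deposited table was 1597, against 180 for MIAT. SNHG1 and TUG1 ranges overlapped in the scrambled ASO libraries (45.7 to 65.0 and 44.0 to 54.1 TPM), and so did those of KCNQ1OT1 and MIAT (0.875 to 1.02 and 0.271 to 1.28 TPM). The range of MEG3 there (21.0 to 57.5 TPM) overlapped those of SNHG1 and TUG1, so the order among these 3, and between KCNQ1OT1 and MIAT, is not resolved. Together the 10 RNAs took 0.374% to 0.703% of TPM, of which H19 made up 80.2% to 88.3%.

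**Figure D1:**
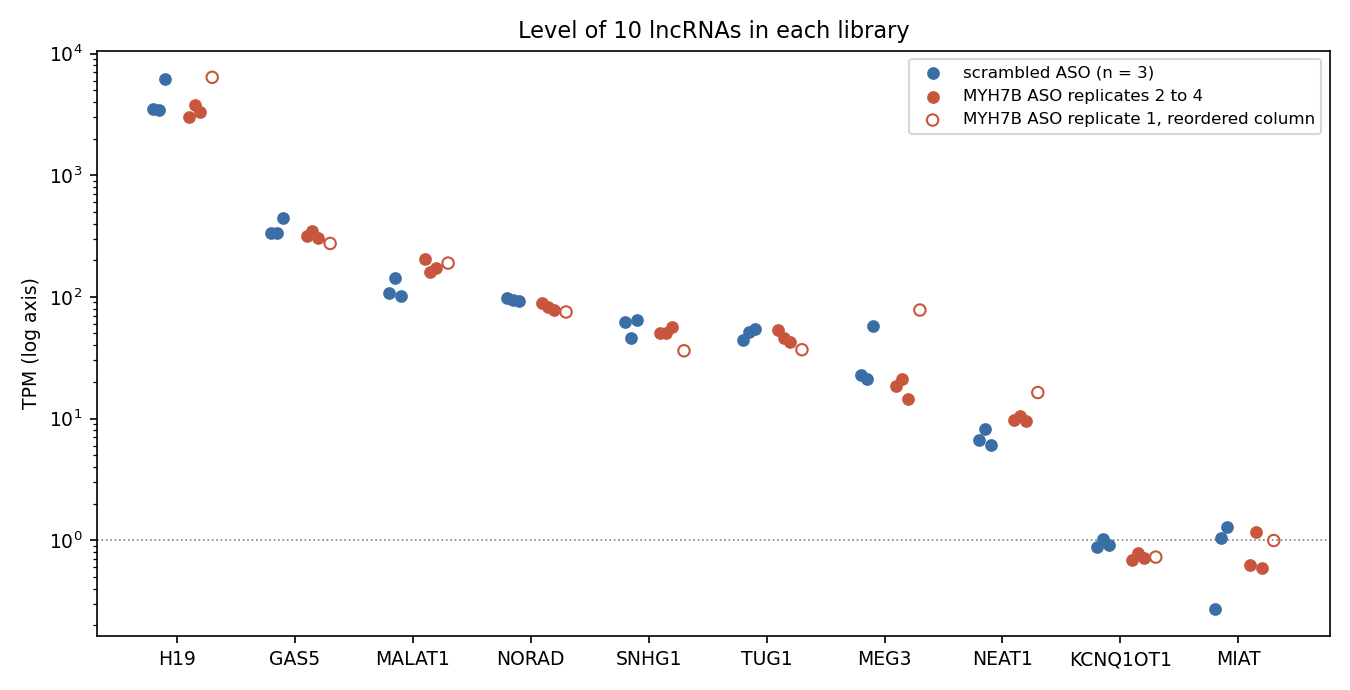
Level in TPM (log axis) of each of the 10 lncRNAs, 1 point per library; filled points are the 3 scrambled ASO and 3 MYH7B ASO libraries of the main comparison, and open points are MYH7B ASO replicate 1 after reordering. H19 lies at 3003 TPM or more in every library, while KCNQ1OT1 and MIAT lie near the dotted line at 1 TPM.

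With the MYH7B ASO, MALAT1 and NEAT1 had higher values in every library than any scrambled ASO library, NORAD and KCNQ1OT1 had lower values in every library, and the other 6 overlapped between groups. The differences were modest, with ratios of means from 0.537 for MEG3 to 1.53 for MALAT1. In limma, a linear model fitted to log2(TPM + 1) over the 15988 genes whose mean reached 1 TPM, none of the 8 lncRNAs that reached this minimum passed at an adjusted p under 0.05, where 1.66% of all tested genes passed (0.181% higher and 1.48% lower). At an unadjusted p under 0.05 there were 2 of the 8, MALAT1 and NEAT1, where 15.2% of all tested genes had such a p and 4.67% had one in the higher direction. In the authors' deposited table, 2 of the 10 had an adjusted p-value under 0.05, again MALAT1 and NEAT1. Both were higher, as were 3.02% of the 15527 genes with an adjusted p-value there; 5.69% were lower and 8.71% passed in all, and of the 1502 lncRNA genes 3.13% passed. The groups of 3 did not overlap for 3 of the 8 tested lncRNAs, 2 higher and 1 lower, against 21.2% of all tested genes (7.11% higher and 14.1% lower). The 8 log2 fold changes had a median of -0.15, and all tested genes had a median of -0.04.

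**Figure D2:**
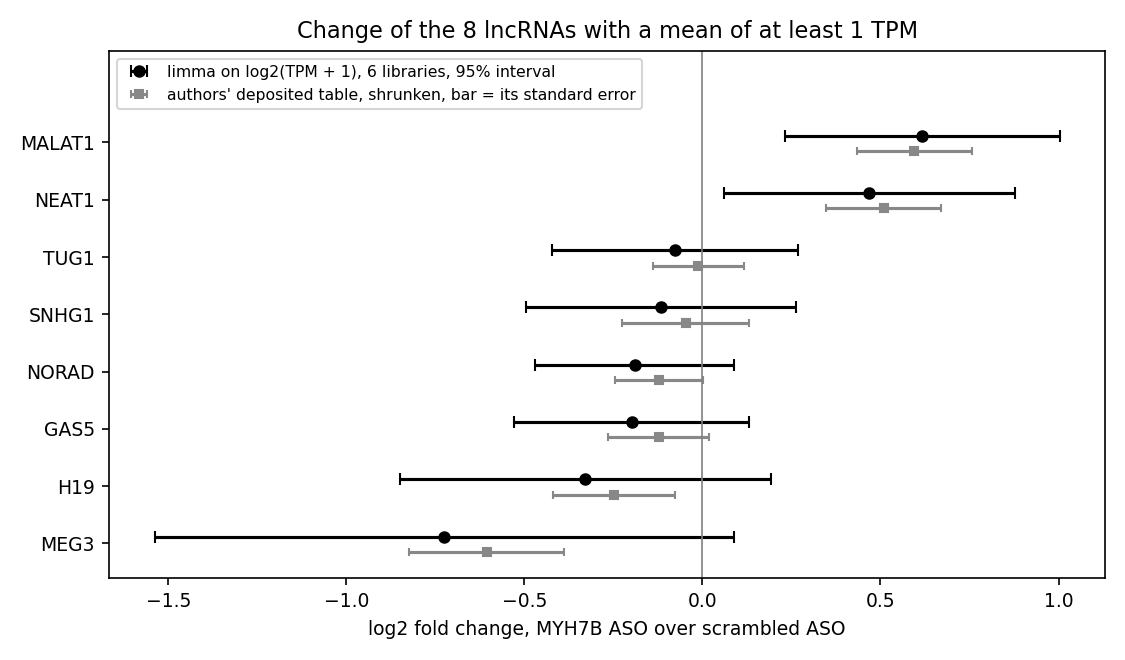
Log2 fold change, MYH7B ASO over scrambled ASO, of the 8 tested lncRNAs. Black points are limma estimates on log2(TPM + 1) with 95% intervals, which exclude 0 for MALAT1 and NEAT1 before adjustment across genes; grey squares are the shrunken values of the authors' deposited table with its standard errors.

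MALAT1 (ENSG00000251562.8, chromosome 11, 65497688 to 65506516, GENCODE 29) had 107, 143 and 101 TPM in the scrambled ASO libraries. It had 203, 161 and 173 TPM in MYH7B ASO replicates 2 to 4, and 190 TPM in replicate 1. All MYH7B ASO libraries lay above the highest scrambled ASO library. The mean was 117 ± 22.8 TPM (SD, n = 3) and 179 ± 21.9 TPM (SD, n = 3). The log2 fold change of MALAT1 was 0.62 (SE 0.17, 95% interval 0.23 to 1.003), and its limma adjusted p of 0.132 did not pass. In the authors' deposited table the shrunken estimate was 0.60 (adjusted p-value 0.00521).

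NEAT1 (ENSG00000245532.9, chromosome 11, 65422774 to 65445540) ends 52.1 kb before MALAT1 starts, on the same strand. It had 6.67, 8.24 and 6.02 TPM with the scrambled ASO and 9.80, 10.6 and 9.53 TPM in MYH7B ASO replicates 2 to 4. Replicate 1 had 16.4 TPM, the highest of all. The mean was 6.98 ± 1.14 TPM (SD, n = 3) and 9.97 ± 0.546 TPM (SD, n = 3), again without overlap. The log2 fold change of NEAT1 was 0.47 (SE 0.18, 95% interval 0.060 to 0.88). Its limma adjusted p of 0.264 did not pass, whereas the authors' deposited table held 0.51 (adjusted p-value 0.0247). Gene-level TPM does not separate the short NEAT1 form, which has a poly-A tail, from the long form that builds paraspeckles. Both RNAs end in the triple-helix stretches shown above, and how far poly-A selection set their recovery in each library was not tested. The ratio of MALAT1 to NEAT1 was 16.0, 17.4 and 16.8 in the scrambled ASO libraries and 20.8, 15.2 and 18.1 in MYH7B ASO replicates 2 to 4, an overlap between groups.

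**Figure D3:**
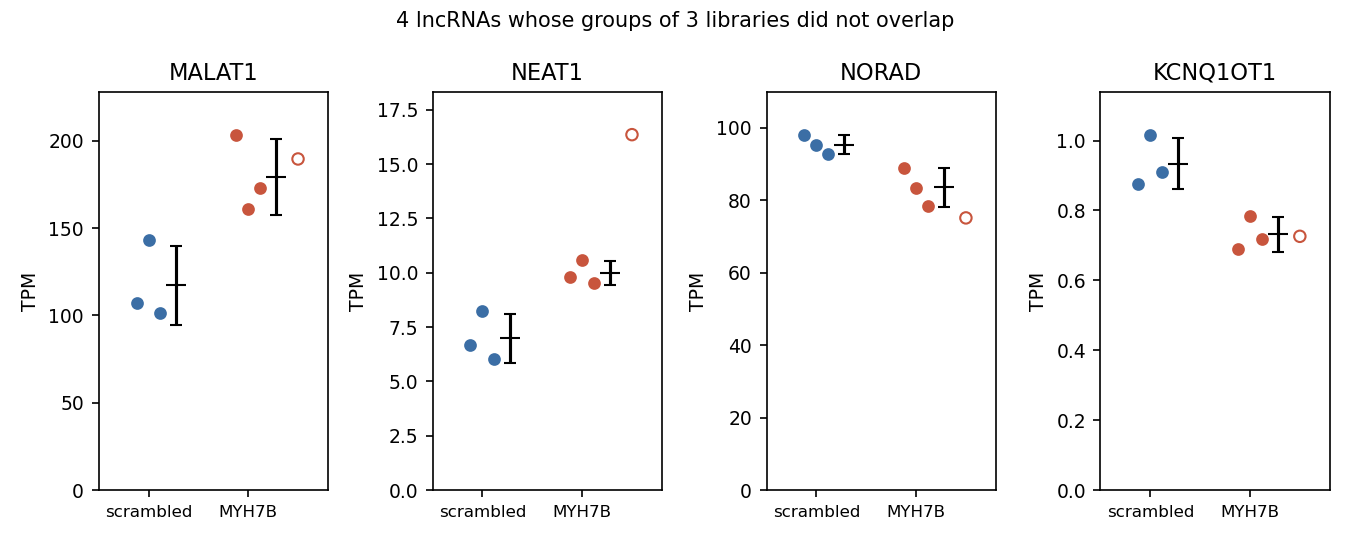
TPM per library (linear axes from 0) for MALAT1, NEAT1, NORAD and KCNQ1OT1; filled points are libraries, the cross-bar and whiskers give the mean and SD of 3, and the open point is MYH7B ASO replicate 1 after reordering. MALAT1 and NEAT1 lie higher, and NORAD and KCNQ1OT1 lower, in every MYH7B ASO library.

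The proteins that share the bodies of these RNAs were measured as a list. Of 15 paraspeckle protein genes, all tested, none passed in limma and 3 had an unadjusted p under 0.05, where 15.2% of all tested genes did, with a median log2 fold change of 0.02. The most abundant, HNRNPH1 and HNRNPK, both RNA-binding proteins, had log2 fold changes of -0.08 and -0.00 (limma adjusted p = 0.807 and 0.996). NONO, a core paraspeckle protein named after its values were seen, had 139, 133 and 162 TPM with the scrambled ASO and 191, 186 and 165 TPM in MYH7B ASO replicates 2 to 4, with 181 TPM in replicate 1, a log2 fold change of 0.32 (limma adjusted p = 0.302; 0.37 and an adjusted p-value of 0.0259 in the authors' deposited table). Of 15 nuclear speckle protein genes, none passed in limma, none had an unadjusted p under 0.05, and none passed in the authors' deposited table. Their most abundant members, the speckle scaffold SRRM2 and the splicing factor SRSF3, had log2 fold changes of -0.04 and 0.12 (limma adjusted p = 0.931 and 0.818).

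The imprinted H19 and MEG3 varied widely between libraries of the same treatment. H19 (ENSG00000130600.19, chromosome 11, 1995176 to 2001470), a fetal RNA that is the host of the miR-675 precursor, had 3478, 3435 and 6201 TPM in the scrambled ASO libraries. It had 3003, 3789 and 3284 TPM in MYH7B ASO replicates 2 to 4 and 6375 TPM in replicate 1. MEG3 (ENSG00000214548.18, chromosome 14, 100779410 to 100861031), the maternally expressed RNA of the DLK1 locus, had 22.6, 21.0 and 57.5 TPM with the scrambled ASO, 18.6, 21.1 and 14.6 TPM in MYH7B ASO replicates 2 to 4 and 77.9 TPM in replicate 1. Both RNAs were high in the same pair of libraries, scrambled ASO replicate 3 and MYH7B ASO replicate 1, which carry different treatments.

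The H19 means were 4371 ± 1585 TPM (SD, n = 3) and 3359 ± 398 TPM (SD, n = 3), with a log2 fold change of -0.33 (95% interval -0.85 to 0.19, limma adjusted p = 0.551). The MEG3 means were 33.7 ± 20.6 TPM (SD, n = 3) and 18.1 ± 3.27 TPM (SD, n = 3), with a log2 fold change of -0.72 (95% interval -1.54 to 0.09, limma adjusted p = 0.385). Without scrambled ASO replicate 3 the log2 fold changes were -0.05 for H19 and -0.27 for MEG3, and with replicate 1 added they were -0.10 and -0.21. The authors' deposited table had -0.61 for MEG3 (adjusted p-value 0.0583) and -0.25 for H19 (0.441).

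Genes beside these RNAs were compared by library. IGF2, the paternally expressed growth factor next to H19, had 1842, 1611 and 1675 TPM with the scrambled ASO, 1495, 1556 and 1537 TPM in MYH7B ASO replicates 2 to 4 and 1753 TPM in replicate 1. IGF2 was not high in scrambled ASO replicate 3, so the ratio of H19 to IGF2 was 1.89, 2.13 and 3.70 in scrambled ASO replicates 1 to 3, 2.01, 2.43 and 2.14 in MYH7B ASO replicates 2 to 4, and 3.64 in replicate 1. DLK1, a paternally expressed gene of the MEG3 locus named after its values were seen, had 14.3, 34.3 and 85.5 TPM, then 15.2, 16.0 and 14.0 TPM, and 174.6 TPM in replicate 1. DLK1 was thus highest in the same libraries as MEG3, whereas MEG8, a neighbouring lncRNA, was not (5.12, 3.53 and 3.83 TPM, then 4.41, 3.03 and 1.71 TPM, and 4.49 TPM in replicate 1).

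Of the 9 fibroblast markers, 7 had their highest scrambled ASO level in replicate 3, and 6 had their highest MYH7B ASO level in replicate 1, the libraries in which H19 and MEG3 were high. Their 9 genes summed to 5255 TPM in scrambled ASO replicate 3, the highest of all, and to 4159 TPM in MYH7B ASO replicate 1, against 1366 to 2103 TPM in the other MYH7B ASO libraries. Between treatments 7 of the 9 log2 fold changes were negative and 2 positive, with a median of -0.98. In limma COL1A2 and LUM were called lower, where 1.48% of all tested genes were. The groups of 3 did not overlap for 5 lower and 2 higher markers, against 14.1% and 7.11% of all tested genes. The authors' deposited table called 4 lower and 2 higher, against 5.69% and 3.02% of its genes. PDGFRA and TCF21 were higher without overlap (log2 fold changes 0.60 and 0.71, limma adjusted p = 0.152 and 0.168) and were called higher in the authors' deposited table (adjusted p-values 0.00287 and 0.00270). DCN, a fibroblast matrix proteoglycan, had 139 and 189 TPM where H19 and MEG3 were high and 10.1 to 48.9 TPM in the other 5. THY1, a surface protein of fibroblasts, had 82.6 and 90.1 TPM there and 22.1 to 33.7 TPM elsewhere. The part of fibroblast-like cells in the H19 and MEG3 levels was not tested.

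**Figure D4:**
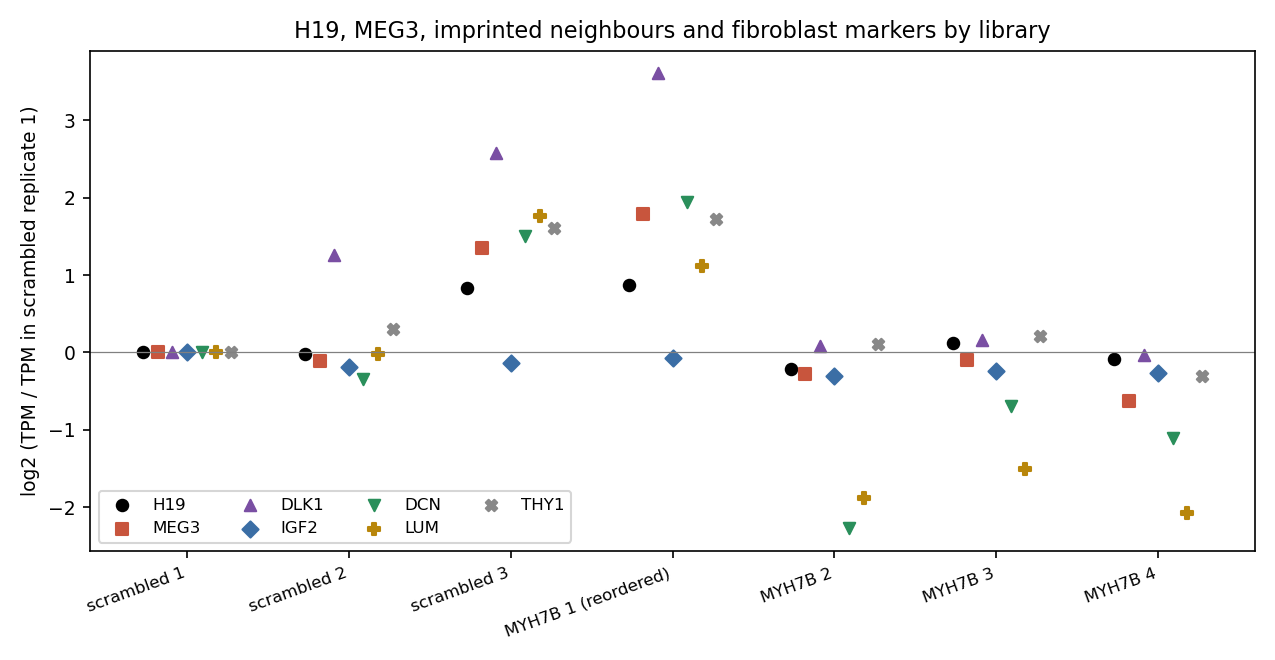
Log2 of TPM over the TPM in scrambled ASO replicate 1, by library, for H19, MEG3, their imprinted neighbours DLK1 and IGF2, and the fibroblast markers DCN, LUM and THY1. H19, MEG3, DLK1, DCN, LUM and THY1 are high in scrambled ASO replicate 3 and MYH7B ASO replicate 1, and IGF2 does not rise above 0.

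KCNQ1OT1 (ENSG00000269821.1, chromosome 11, 2608328 to 2699994) is transcribed antisense within KCNQ1 and silences nearby genes on the paternal copy. It had 0.875, 1.02 and 0.911 TPM with the scrambled ASO and 0.689, 0.785 and 0.720 TPM in MYH7B ASO replicates 2 to 4, with 0.726 TPM in replicate 1. The groups did not overlap, with means of 0.934 ± 0.0737 TPM (SD, n = 3) and 0.731 ± 0.0488 TPM (SD, n = 3). KCNQ1OT1 fell below the minimum of 1 TPM and was not tested in the main fit. With a minimum mean of 0.1 TPM and a pseudocount of 0.1 TPM, chosen after the data were seen, its log2 fold change was -0.31 (limma adjusted p = 0.841), and -0.26 stood in the authors' deposited table (adjusted p-value 0.353). KCNQ1, a potassium channel gene on the other strand, had 21.4, 18.8 and 17.0 TPM with the scrambled ASO and 17.5, 12.7 and 12.6 TPM in MYH7B ASO replicates 2 to 4, with 9.25 TPM in replicate 1. Whether counting used strand is not given in the sources used here, so reads of KCNQ1OT1 and KCNQ1 cannot be told apart. CDKN1C, the cell cycle inhibitor within the domain that KCNQ1OT1 silences, had 53.1, 69.3 and 94.2 TPM against 106, 104 and 97.9 TPM, and 159 TPM in replicate 1. The groups did not overlap for CDKN1C, and its log2 fold change was 0.54 (limma adjusted p = 0.255). The authors' deposited table had 0.52 (adjusted p-value 0.0172). Within each treatment CDKN1C was highest in scrambled ASO replicate 3 and MYH7B ASO replicate 1, where H19 and MEG3 were high. Other listed neighbours overlapped between groups: KCNQ1 (-0.41), SLC22A18 (0.16), TSSC4 (0.33) and NAP1L4 (0.11). PHLDA2 fell below the minimum. Any link between KCNQ1OT1 and CDKN1C levels was not tested.

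Of 13 imprinted neighbours at the H19, MEG3 and KCNQ1OT1 loci, 8 were tested and none passed in limma. At an unadjusted p under 0.05 there was 1, where 15.2% of all tested genes had such a p. Their median log2 fold change was -0.03. RTL1, MEG9, DIO3 and DIO3OS stayed under 1 TPM in all 6 libraries. Of 13 imprinted genes elsewhere in the genome, 11 were tested and 1 passed, higher, as did 0.181% of all tested genes. That gene was PEG10, a retrotransposon-derived placental gene, which rose: 159 ± 7.40 TPM became 349.7 ± 116 TPM (SD, n = 3 each), by 1.08 on the log2 scale (SE 0.21, limma adjusted p = 0.0463). PEG10 had 177 TPM in replicate 1, close to the scrambled ASO libraries, and was not called with it (limma adjusted p = 0.240). Its call was also lost in each of the 6 fits that left out 1 library (limma adjusted p from 0.0511 to 0.122). The most abundant of these genes were GNAS, a G protein subunit, and SNRPN, a splicing protein gene, with log2 fold changes of 0.21 and -0.35 (limma adjusted p = 0.465 and 0.228).

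Neither snoRNA host RNA passed the test, and both overlapped between groups. GAS5 (ENSG00000234741.8, chromosome 1, 173863900 to 173868882), named for its accumulation in growth-arrested cells, had 337.4, 337.1 and 446 TPM with the scrambled ASO. It had 314, 347 and 307 TPM in MYH7B ASO replicates 2 to 4 and 275 TPM in replicate 1. The log2 fold change of GAS5 was -0.20 (SE 0.14, 95% interval -0.53 to 0.13, limma adjusted p = 0.572). SNHG1 (ENSG00000255717.7, chromosome 11, 62851988 to 62855914), whose gene contains 7 annotated snoRNAs, had 61.7, 45.7 and 65.0 TPM, then 50.4, 50.5 and 56.3 TPM, and 36.0 TPM in replicate 1. The log2 fold change of SNHG1 was -0.12 (95% interval -0.50 to 0.26, limma adjusted p = 0.785). GAS5 overlaps GAS5-AS1 and ZBTB37 on the other strand, so shared reads are uncertain. Other lncRNA genes are also annotated over MALAT1, MEG3, TUG1 and MIAT, so the same limit applies to their levels.

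The other snoRNA host lncRNAs were counted in the same way. Of 27 listed, 26 were tested, with a median log2 fold change of 0.03. In limma 1 was lower and none higher, where 1.48% and 0.181% of all tested genes were. SNHG14, a long imprinted transcript of the Prader-Willi region, fell: its mean was 89.2 ± 9.76 TPM with the scrambled ASO and 48.9 ± 6.64 TPM with the MYH7B ASO (SD, n = 3 each), with a log2 fold change of -0.86 (SE 0.15, limma adjusted p = 0.0351). SNHG14 had 26.5 TPM in replicate 1 and was not called with it (limma adjusted p = 0.0884), nor in any of the 6 fits that left out 1 library (0.0591 to 0.156). SNHG14 stood at -0.73 in the authors' deposited table (adjusted p-value 5.5e-05). The most abundant hosts, SNHG29 and SNHG5, had 1219 ± 50.9 against 1025 ± 91.2 TPM and 436 ± 104 against 331 ± 102 TPM (SD, n = 3 each; log2 fold changes -0.25 and -0.42, limma adjusted p = 0.345 and 0.483). Spliced snoRNA host transcripts are known to be removed by nonsense-mediated decay. Of 12 genes of that pathway, all tested, none passed in limma, with 8 log2 fold changes negative and 4 positive. At an unadjusted p under 0.05 there was 1 (15.2% of all tested genes), and 1 was lower in the authors' deposited table (5.69% of its genes). SMG1 was the gene in both cases, with 15.4, 18.9 and 13.4 TPM against 11.5, 10.2 and 8.52 TPM, and 7.42 TPM in replicate 1. The log2 fold change of SMG1 was -0.61 (limma adjusted p = 0.181), and -0.53 stood in the authors' deposited table (adjusted p-value 0.0234). NBAS and SMG5, the most abundant genes of that pathway, had log2 fold changes of -0.33 and -0.08 (limma adjusted p = 0.373 and 0.847).

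NORAD (ENSG00000260032.2, chromosome 20, 36045622 to 36050960) had 98.1, 95.1 and 92.8 TPM with the scrambled ASO, the tightest group of the 10 RNAs. It had 88.9, 83.3 and 78.3 TPM in MYH7B ASO replicates 2 to 4 and 75.1 TPM in replicate 1, all below the scrambled ASO libraries. The mean was 95.3 ± 2.61 TPM (SD, n = 3) and 83.5 ± 5.29 TPM (SD, n = 3). The log2 fold change of NORAD was -0.19 (SE 0.12, 95% interval -0.47 to 0.09, limma adjusted p = 0.512). In the authors' deposited table it was -0.12 (adjusted p-value 0.647).

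PUM2, a Pumilio protein that NORAD binds through elements like those printed above, passed the test. PUM2 had 20.3, 26.1 and 25.4 TPM with the scrambled ASO and 11.97, 9.87 and 12.4 TPM in MYH7B ASO replicates 2 to 4, with 7.33 TPM in replicate 1. PUM2 fell, with means of 24.0 ± 3.17 and 11.4 ± 1.37 TPM (SD, n = 3 each), with a log2 fold change of -1.004 (SE 0.17, limma adjusted p = 0.0305). PUM2 was also called with replicate 1 added (limma adjusted p = 0.0434) and in the authors' deposited table (-0.86, adjusted p-value 2.1e-05), but in none of the 6 fits that left out 1 library (limma adjusted p from 0.0510 to 0.113). The ratio of NORAD to PUM2 RNA was 4.83, 3.64 and 3.65 with the scrambled ASO, 7.43, 8.44 and 6.30 in MYH7B ASO replicates 2 to 4 and 10.2 in replicate 1. PUM2 is named because it was called lower, so the separation of this ratio follows from its fall. The ratio is not a further result about NORAD.

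**Figure D5:**
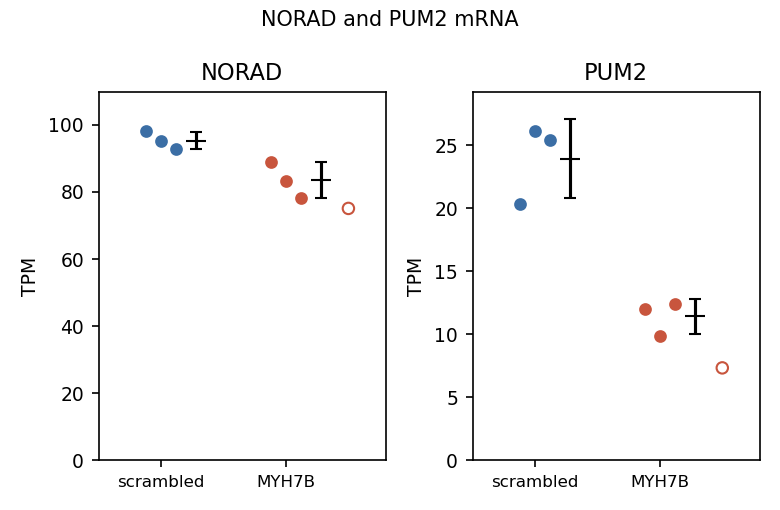
TPM per library (linear axes from 0) for NORAD and PUM2; points are libraries, the cross-bar and whiskers give the mean and SD of 3, and the open point is MYH7B ASO replicate 1 after reordering. Both are lower in every MYH7B ASO library, with means of 95.3 and 83.5 TPM for NORAD and 24.0 and 11.4 TPM for PUM2.

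TUG1 (ENSG00000253352.9, chromosome 22, 30969245 to 30979395) had 44.0, 51.4 and 54.1 TPM with the scrambled ASO. It had 53.4, 45.9 and 42.5 TPM in MYH7B ASO replicates 2 to 4 and 36.8 TPM in replicate 1, and the groups overlapped. The log2 fold change of TUG1 was -0.08 (95% interval -0.42 to 0.27, limma adjusted p = 0.854). MIAT (ENSG00000225783.8, chromosome 22, 26646428 to 26676475) had 0.271, 1.03 and 1.28 TPM, then 0.625, 1.17 and 0.590 TPM, and 0.994 TPM in replicate 1. Among the 10, MIAT had the widest relative spread among scrambled ASO libraries, with the highest 4.70 times the lowest. It was not tested in the main fit, and its mean log2(TPM + 1) differed by -0.02 (MYH7B ASO minus scrambled ASO).

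Proteins known to bind these RNAs formed a list of 13 genes, all tested. PUM2, lower, was the single call in limma and in the authors' deposited table. Over all genes, 1.48% were called lower in limma and 5.69% in the authors' deposited table. RBMX, a partner of NORAD, and SF1, tied to the MIAT repeat, were the most abundant, with log2 fold changes of -0.03 and 0.05 (limma adjusted p = 0.933 and 0.910). QKI, which binds letters like those of the MIAT repeat, was named after its values were seen. It had 68.3, 101 and 77.9 TPM against 64.0, 53.7 and 63.7 TPM, and 46.9 TPM in replicate 1, a log2 fold change of -0.43 (limma adjusted p = 0.293).

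With replicate 1 added, an exact permutation test over the 35 splits of 7 libraries was possible for each lncRNA, 2-sided on the difference of mean log2(TPM + 1). MALAT1, NEAT1 and KCNQ1OT1 each gave the smallest p that this test allows, an exact permutation p of 0.0286, and NORAD gave 0.0571. The other 6 gave an exact permutation p from 0.114 to 1. These values rest on the reordered replicate 1. They are not adjusted for their number. No lncRNA passed in limma over the 7 libraries, where 1.07% of all genes did. A comparison of 3 libraries with 3 cannot go below an exact p of 0.1. An exact permutation p of 0.0286 requires that the 2 groups do not overlap. The share of all genes that reach it over 7 libraries was not counted. Over the 6 libraries, the groups of 3 did not overlap for 21.2% of all tested genes.

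Other lncRNAs gave the setting for these values. Of 1897 tested lncRNA genes of GENCODE 29, 19 passed in limma, 2 higher (0.105%) and 17 lower (0.896%), which is 1% in all, and their median log2 fold change was -0.08. Of 18 other widely expressed lncRNAs, 16 were tested, with a median log2 fold change of -0.27, 12 negative and 4 positive. The groups of 3 did not overlap for 4 lower and none higher, against 14.1% and 7.11% of all tested genes. At an unadjusted p under 0.05 there were 4 (15.2% of all tested genes). The authors' deposited table called 2 lower, as it did 5.69% of its genes. In limma 1 was lower, as were 1.48% of all tested genes. LINC01278 fell; it averaged 27.1 ± 1.56 TPM against 11.2 ± 1.97 TPM (SD, n = 3 each), with a log2 fold change of -1.22 (SE 0.17, limma adjusted p = 0.0131; -1.07 and 1.1e-08 in the authors' deposited table). Its call was lost without MYH7B ASO replicate 3 or 4 (limma adjusted p = 0.0597 and 0.0682) and with replicate 1 added (0.0651), in which it had 17.9 TPM. MIR100HG and OIP5-AS1, the most abundant of the list, had log2 fold changes of -0.18 and 0.07 (limma adjusted p = 0.713 and 0.861). Of 16 other cardiac lncRNAs, 10 were tested and none passed in limma, with 3 at an unadjusted p under 0.05 (15.2% of all tested genes). TTN-AS1, antisense to the titin gene, had 134, 131 and 121 TPM against 118, 85.5 and 77.3 TPM, and 3.49 TPM in replicate 1 (log2 fold change -0.48, limma adjusted p = 0.235). CDKN2B-AS1, with a mean of 1.53 TPM, had 4.96, 0.587 and 2.91 TPM against 0, 0.225 and 0.507 TPM. It had 3.78 TPM in replicate 1. The log2 fold change of CDKN2B-AS1 was -1.44 (limma adjusted p = 0.250), and -0.49 stood in the authors' deposited table (adjusted p-value 0.0246). LINC00881, a cardiomyocyte lncRNA, had 73.0, 94.5 and 78.7 TPM against 168, 98.6 and 107 TPM, and 47.5 TPM in replicate 1, below every scrambled ASO library (log2 fold change 0.56, limma adjusted p = 0.261; 0.55 and an adjusted p-value of 0.0357 in the authors' deposited table).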

How the data were processed

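Per the file headers and names, the authors deposited TPM for each gene in 7 libraries, each column summing to 1000000, which keeps no sequencing depth, so no counting interval is given. The authors' deposited comparison table holds a mean normalized count (a signal over libraries), a shrunken log2 fold change, its SE, a score and p-values. Its headers do not name the libraries compared, so its values may rest on other libraries than the limma fits. Per the submitters' processing notes, DESeq2 and GRCh38.p13 were used; aligner, counting and strand are not given in the sources used here.

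MYH7B ASO replicate 1 had values in the first 58721 positions and 1513 empty ones. Assigning the sorted GENCODE 29 gene identifiers to them raised its median correlation with the others from 0.408 to 0.955 (across genes); within 100 genes either side of each lncRNA it was 0.731 to 0.975. Its 58721 values sum to 1000000. Main comparisons use the 6 other libraries (correlations 0.959 to 0.979).

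Genes whose mean reached 1 TPM were fitted with limma 3.58.1 in R 4.3.3 (log2(TPM + 1), intensity trend, Benjamini-Hochberg adjustment over 15988 genes, threshold 0.05), tested on simulated data. Fold changes on this scale understate those of low genes. Other steps ran in Python 3.11.15 (numpy 2.4.6, pandas 2.3.3) and figures in matplotlib 3.10.9. All 10 lncRNAs are reported, with each called member of 9 gene lists (up to 4 a list) and, where fewer than 2 were called, the 2 most abundant members. DLK1, MEG8, KCNQ1, DCN, THY1, COL1A2, LUM, PDGFRA, TCF21, APOA1, NONO and QKI were named after their values were seen. So were SLC22A18, TSSC4, NAP1L4, PHLDA2, SMG1 and CDKN2B-AS1. Some list members are not reported here. The lncRNAs and lists were chosen with earlier results of these data known. Alternatives numbered 21 planned and 1 added.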

Additional observations from a re-analysis of the deposited data

Results flagged for a closer look

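Among the 4 MYH7B ASO libraries, each of the 10 lncRNAs was checked for 1 library standing apart, which chance gives in about 1 group in 20. NEAT1 was 16.4 TPM in MYH7B ASO replicate 1, against 9.53 to 10.6 TPM in the other 3 libraries. MEG3 was 77.9 TPM in the same library, against 14.6 to 21.1 TPM in the other 3. This library's column was reordered, and it had the lowest share of mitochondrially encoded genes (17.2% of TPM) and the highest share of RN7SL1 and RN7SL2 (14.4% of TPM). The part of these in its NEAT1 and MEG3 levels was not tested.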

How the results depend on the processing

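No alternative in which they were tested called any of the 10 lncRNAs in limma (22 alternatives for 8 of them, 4 for KCNQ1OT1 and MIAT). The 8 tested in the main comparison kept their directions, except that MEG3 was 0.055 over 7 libraries under the replicate block by title number; MIAT, at -0.02, reached 0.04. The limma adjusted p of MALAT1 ran from 0.0867 (without scrambled ASO replicate 2) to 0.763, and that of NEAT1 from 0.159 to 0.763. Of all genes, 265 were called, 40 with no filter on low values, 150 with no intensity trend and 170 over 7 libraries. Leaving out 1 library gave 53 to 149 calls. Of the list genes, 4 were called, 2 after quantile normalization, 1 with no intensity trend, 1 over 7 libraries and 0 with no filter on low values. Leaving out 1 library gave 0 to 1. The replicate block by title number, by description number, and by title number over 7 libraries each called 0 genes and 0 list genes (limma; 1718, 1096 and 1773 genes at an unadjusted p under 0.05). Over the 6 libraries each block leaves 2 pairs, with same-number correlations of deviations of 0.0759 and 0.11 by title and -0.0729 and -0.0387 by description, and the labels do not say that the numbers pair the cultures. Median-ratio rescaling called 58 genes higher and 213 lower, against 29 and 236 without it, and quantile normalization 55 and 202. TPM keep no depth, so the counting error of single values is unknown.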
